A study of Mus musculus with 3 samples.

Results

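Transcripts of 9 complement genes were examined in splenic macrophages of mice that carried an acute myeloid leukemia. The genes were C1qa, C1qb and C1qc, which encode the chains of C1q, the complement components C3 and C4b, the alternative pathway genes Cfp and Cfb, and the anaphylatoxin receptor genes C3ar1 and C5ar1. They were taken by their NCBI gene IDs, and all 9 were found among the 17615 genes listed in any of the 3 tables. The leukemia cells carried GFP and BFP. They had high mM-CSF in the first group, high sM-CSF in the second, and neither of these in the third, called the control here. M-CSF is the macrophage growth factor that signals through CD115, and what its prefixes m and s stand for is not written in the labels. All recipients were C57BL/6J mice aged 6 to 8 weeks that received 800000 leukemia cells each without irradiation, and the control mice carried leukemia too. Mice of this model survived 30 to 40 days, and splenic macrophages that were GR1-negative, CD115-intermediate and F4/80-positive were sorted on day 18. Each group had 1 library, and the labels do not say how many mice went into it. No difference below therefore has a replicate check, no p-value was possible, and each describes these libraries.

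Complement is a cascade of plasma proteins that tags and lyses targets. C1q recognises antibody complexes and dying cells and starts the classical pathway, which proceeds through C4 and C2 to C3, the component on which all pathways converge. Properdin, the product of Cfp, and factor B, the product of Cfb, build and stabilise the convertase of the alternative pathway. Most complement proteins in plasma come from the liver, whereas C1q comes mainly from macrophages and dendritic cells. The fragments released from C3 and C5 act on the receptors encoded by C3ar1 and C5ar1.

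Total estimated counts were 8.57e+06, 8.94e+06 and 9.09e+06 in the mM-CSF, sM-CSF and control libraries. Both genes of the sort were well expressed, with Csf1r (CD115) between 149 and 268 FPKM and Adgre1 (F4/80) between 65.5 and 101 FPKM. Transcripts of other cell types were present as well, and none of the 91 markers on 13 cell type lists was at 0 in any library. In a sorted bulk sample, fewer cells of a type and less RNA per cell cannot be told apart.

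C1qb, C1qc and C1qa lie next to each other in that order on chromosome 4, with no other protein-coding gene between them in the RefSeq annotation of GRCm38.p6. RefSeq promoters were found for 6 of the 9 genes (C1qb, C1qc, C3, Cfp, C3ar1 and C5ar1). The promoters of C1qb, C1qc and Cfp are shown because these genes stood higher in the mM-CSF library. Each runs 5′ to 3′ on the gene's strand, from 250 bases before the gene's start to 50 bases after it. The windows are chr4:136886151-136886450 (minus strand) for C1qb, chr4:136892865-136893164 (minus strand) for C1qc and chrX:20931506-20931805 (minus strand) for Cfp, in GRCm38.p6. Capitals mark matches on either strand to GAGGAA, a core bound by ETS factors such as PU.1, or to TGCTGA, the conserved part of the Maf recognition element.
C1qb: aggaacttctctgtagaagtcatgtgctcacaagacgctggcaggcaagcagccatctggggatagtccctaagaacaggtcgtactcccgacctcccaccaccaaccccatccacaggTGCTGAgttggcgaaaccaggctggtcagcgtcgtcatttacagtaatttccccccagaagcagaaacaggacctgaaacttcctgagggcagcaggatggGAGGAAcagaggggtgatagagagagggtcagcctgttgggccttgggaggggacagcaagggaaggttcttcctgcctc
C1qc: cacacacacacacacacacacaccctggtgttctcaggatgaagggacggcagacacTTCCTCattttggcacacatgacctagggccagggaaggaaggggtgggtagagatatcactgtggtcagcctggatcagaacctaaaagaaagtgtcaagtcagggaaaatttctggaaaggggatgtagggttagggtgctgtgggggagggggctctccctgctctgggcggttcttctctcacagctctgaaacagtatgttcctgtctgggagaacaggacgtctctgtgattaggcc
Cfp: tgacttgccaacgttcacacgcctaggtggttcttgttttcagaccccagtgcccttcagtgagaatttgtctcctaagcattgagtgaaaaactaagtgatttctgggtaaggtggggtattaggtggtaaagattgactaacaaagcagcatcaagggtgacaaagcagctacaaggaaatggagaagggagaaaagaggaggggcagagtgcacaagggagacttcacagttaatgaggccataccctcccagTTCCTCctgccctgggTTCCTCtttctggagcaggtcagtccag

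The letters GAGGAA or their reverse complement occurred once in the C1qb window, starting at base -30, once in the C1qc window, starting at base -193, and in the Cfp window starting at bases 7 and 23, counted from the gene's start. This motif was in 3 of the 6 windows and in 28.3% of all 32851 promoters of the same length. TGCTGA was in the C1qb window at base -131 and in the windows of C3, C3ar1 and C5ar1, that is in 4 of 6, against 19.5% of all promoters. The interferon response element, searched as GAAA followed by any 2 bases and GAAA again, had no match in the 6 windows and one in 3.44% of all promoters. Such matches describe the sequence and are not binding sites measured here.

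The C1q chains were among the most abundant transcripts of these cells, and all 3 were highest in the mM-CSF library. For C1qa (NCBI gene 12259) the mM-CSF library had 1129 FPKM, the sM-CSF library 366 FPKM and the control library 254 FPKM. C1qb (gene 12260) was at 1231, 385 and 271 FPKM in the mM-CSF, sM-CSF and control libraries, and C1qc (gene 12262) was at 1085, 397 and 312 FPKM in the same libraries. Every chain was thus highest with mM-CSF, intermediate with sM-CSF and lowest in the control. By FPKM the chains took ranks 93 to 105 of the genes listed for the mM-CSF library, 151 to 163 for the sM-CSF library and 170 to 204 for the control library. Together they accounted for 0.364% of estimated counts in the mM-CSF library (exact 95% interval 0.360 to 0.368), 0.121% in the sM-CSF library (0.118 to 0.123) and 0.0879% in the control library (0.0859 to 0.0898). These intervals, and those that follow, cover counting error only.

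**Figure D1:**
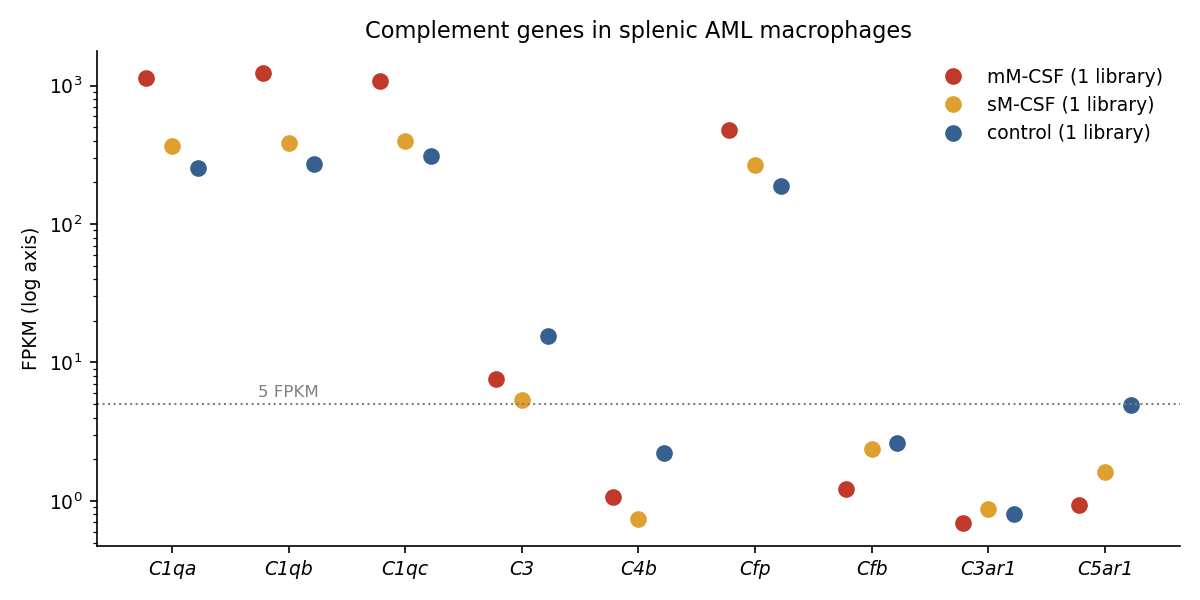
FPKM of the 9 complement genes on a log axis, 1 point per library, with mM-CSF, sM-CSF and control from left to right and a dotted line at 5 FPKM. The C1q chains and Cfp lie above 180 FPKM in every library and are highest with mM-CSF, whereas the other 5 genes lie below 16 FPKM.

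The first comparison asks how complement expression in macrophages from leukemia with high mM-CSF differed from that in control leukemia. The chains were higher in the mM-CSF library by 2.15 (C1qa), 2.18 (C1qb) and 1.80 (C1qc) on the scale of log2(FPKM + 1). As shares of counts, C1qa was 4.47-fold higher (95% interval 4.27 to 4.67), C1qb 4.57-fold higher (4.37 to 4.77) and C1qc 3.50-fold higher (3.36 to 3.65). The interval of C1qc did not overlap those of the other chains. A gene was called higher or lower when it differed by at least 2-fold on the log2(FPKM + 1) scale and had at least 5 FPKM in the higher library. By this rule 4 of the 9 complement genes were higher (the C1q chains and Cfp) and 0 were lower, against 8.97% of all 9789 genes tested that were higher and 15.1% that were lower. The remaining genes were C3, which fell short of 2-fold, and 4 genes that had less than 5 FPKM in both libraries. The median difference over all 9 genes was -0.10, against -0.05 over all genes tested, with 4 genes on the positive and 5 on the negative side.

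Gene length bears on these values, since in the mM-CSF library short transcripts were generally higher relative to the control. The C1q transcripts are short, at 1062 to 1082 bases in the tables. In the bin of 490 tested genes of 1002 to 1235 bases, the median difference between the mM-CSF and control libraries was 0.75, 10% of genes lay above 1.23, and 26.7% were called higher and 3.67% lower. With the bin's median subtracted, the chains differed by 1.39 (C1qa), 1.43 (C1qb) and 1.04 (C1qc), still past 2-fold, and their mean corresponded to a 2.44-fold difference.

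**Figure D2:**
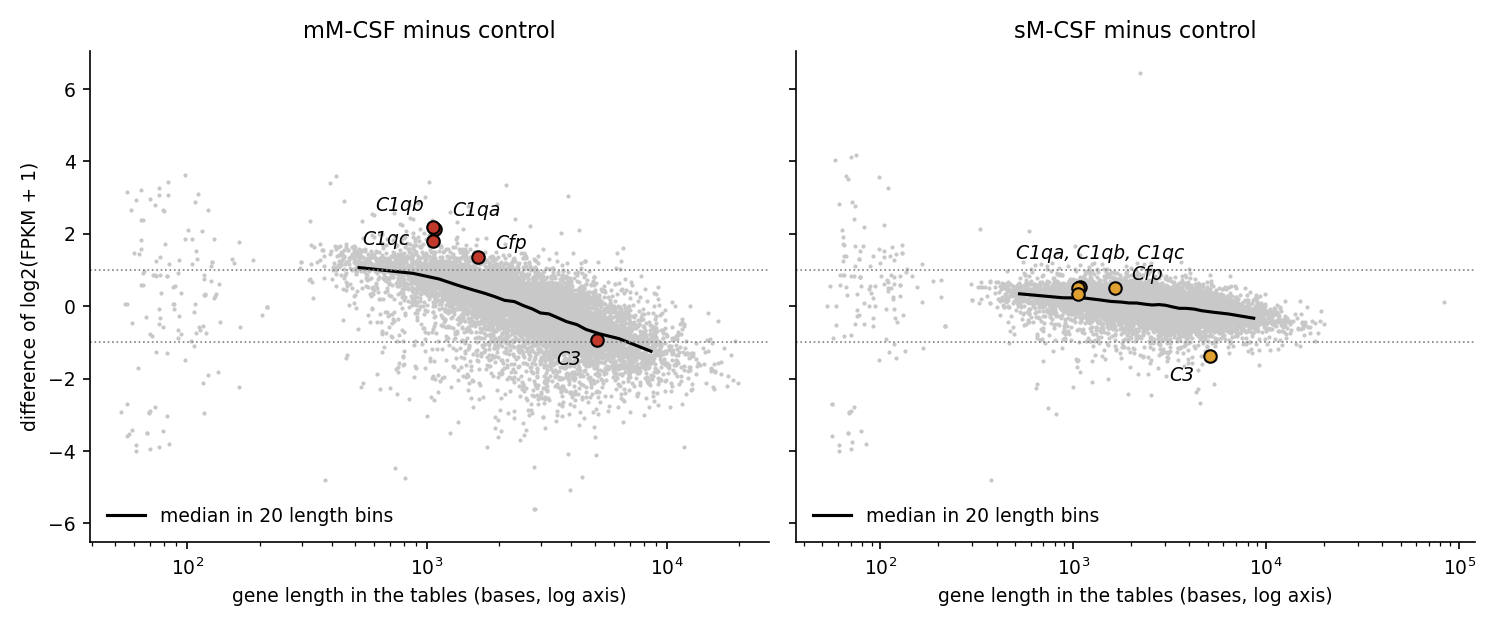
Difference of log2(FPKM + 1) against gene length (log axis) for all genes with at least 5 FPKM in the higher library, for mM-CSF minus control and sM-CSF minus control. Grey points are genes, the black line is the median in 20 bins of length, dotted lines mark 2-fold, and complement genes that passed the minimum are drawn large. In the mM-CSF panel the C1q chains and Cfp lie above the line and C3 close to it; in the sM-CSF panel the C1q chains lie slightly above the line and C3 well below it.

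In the sM-CSF library the chains were higher than in the control by less than 2-fold. The share of counts was 1.44-fold higher for C1qa (1.37 to 1.52), 1.42-fold for C1qb (1.35 to 1.497) and 1.28-fold for C1qc (1.22 to 1.34). The differences of log2(FPKM + 1) were 0.52, 0.50 and 0.35 for C1qa, C1qb and C1qc, and 0.29, 0.28 and 0.12 with the length bin's median of 0.23 subtracted. None of the chains was called. Of all 9 genes, 0 were higher and 1 was lower, namely C3, against 0.785% of 9683 tested genes that were higher and 1.63% that were lower. Scaled to the sort genes Csf1r and Adgre1, which were themselves lower in the sM-CSF library by 0.84 and 0.61, all 3 chains passed 2-fold (1.25, 1.23 and 1.08). The same scaling lifted the median difference of all tested genes by 0.69, with 1710 of 9952 called higher and 31 lower.

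Between the leukemias with mM-CSF and sM-CSF, the chains were 3.10-fold (C1qa, 2.98 to 3.22), 3.21-fold (C1qb, 3.09 to 3.33) and 2.75-fold (C1qc, 2.64 to 2.85) higher in the mM-CSF library by share of counts. By the size rule 3 of the 9 genes were higher, the C1q chains, and 0 were lower, against 3.79% of 9574 tested genes that were higher and 8.73% that were lower. Among 478 tested genes of like length, 10.0% were called higher and 2.30% lower. With that bin's median of 0.55 subtracted, C1qa and C1qb stayed past 2-fold at 1.07 and 1.12, while C1qc was at 0.89. C3 differed by 0.44 between these libraries, and by 1.05 with its own bin's median subtracted. The comparisons of mM-CSF and of sM-CSF with the control share the control library.

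**Figure D3:**
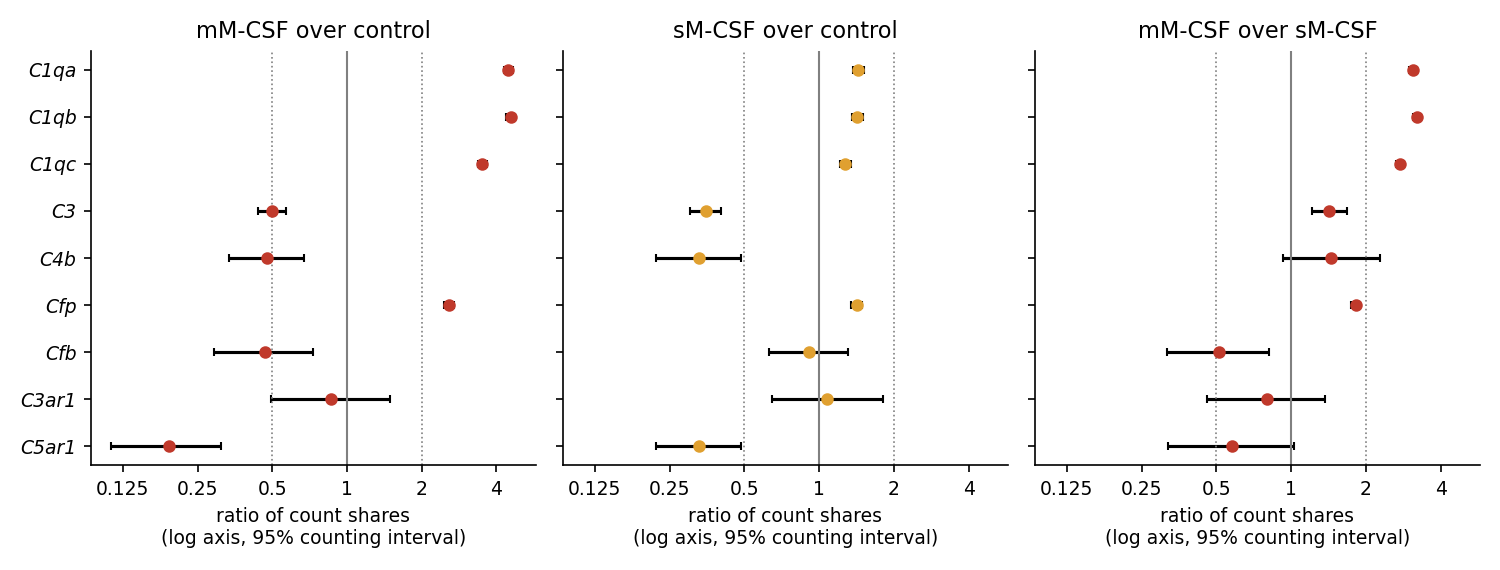
Ratio of the shares of estimated counts (log axis) for each complement gene, for mM-CSF over control, sM-CSF over control and mM-CSF over sM-CSF. Bars are exact 95% intervals for counting error, with 1 library per group; dotted lines mark 0.5 and 2. The C1q chains and Cfp lie to the right of 1 in all panels, and C5ar1 lies left of 0.5 in both panels against the control.

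The balance between the chains also differed. C1q is assembled from all 3 chains in equal number. Per length, C1qb stood 1.09 times as high as C1qa in the mM-CSF library (95% interval 1.06 to 1.12), 1.05 times in the sM-CSF library (1.01 to 1.10) and 1.07 times in the control library (1.01 to 1.13), and these intervals overlapped. C1qc was the highest chain in the sM-CSF and control libraries by point value and the lowest in the mM-CSF library. The FPKM ratio of C1qa to C1qc was 1.04 (1.01 to 1.07) in the mM-CSF library, 0.922 (0.880 to 0.965) in the sM-CSF library and 0.817 (0.774 to 0.862) in the control library. The ratio of C1qb to C1qc was 1.14 (1.10 to 1.17), 0.971 (0.927 to 1.02) and 0.871 (0.826 to 0.918) in the mM-CSF, sM-CSF and control libraries. The chain transcripts differ by at most 20 bases in length in the tables, and the estimated counts of all 3 were whole in every library.

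**Figure D4:**
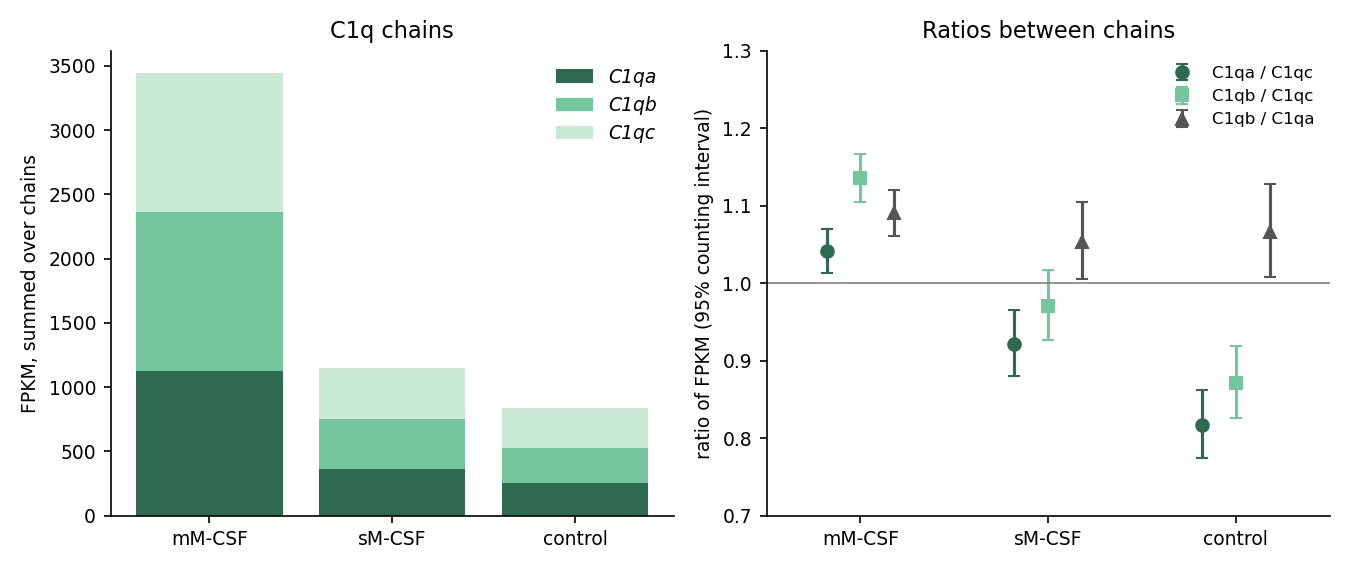
Left, FPKM of C1qa, C1qb and C1qc stacked for each library; right, ratios of FPKM between chains with exact 95% counting intervals, 1 library per group. The summed level is 3445 FPKM with mM-CSF, 1148 with sM-CSF and 837 in the control, and the ratios of C1qa and C1qb to C1qc are above 1 only in the mM-CSF library.

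C1q also stood higher with mM-CSF relative to Cd68 and to Csf1r, a longer transcript of 3875 bases. The mean FPKM of the chains was 5.17 times that of Csf1r in the mM-CSF library, 2.56 times in the sM-CSF library and 1.04 times in the control library. Relative to Cd68, a lysosomal macrophage gene of similar length at 1255 bases, it was 4.05, 1.79 and 1.14 times as high in the mM-CSF, sM-CSF and control libraries. Such ratios depend on the gene chosen. Aif1, a short macrophage marker of 875 bases, was itself called higher with mM-CSF against the control. It was at 90.6, 27.75 and 29.7 FPKM in the mM-CSF, sM-CSF and control libraries. The 10 macrophage markers summed to 1037 FPKM in the mM-CSF library, 872 in the sM-CSF library and 1585 in the control library, with 2 called higher and 2 lower in the comparison of mM-CSF with control. Lyz2 weighed heavily in these sums, at 205, 282 and 784 FPKM in the mM-CSF, sM-CSF and control libraries. The median difference of the 10 markers between mM-CSF and control was 0.16. The 7 markers of red pulp macrophages, which clear aged red cells in the spleen, summed to 1743, 954 and 1033 FPKM in the mM-CSF, sM-CSF and control libraries. Only the transferrin gene Trf of these 7 was called higher in the mM-CSF library against the control, and 0 were lower. Trf weighed heavily in the sums, at 614, 257 and 114 FPKM in the mM-CSF, sM-CSF and control libraries. Spic, the transcription factor gene that defines these cells, was at 201, 88.2 and 114 FPKM in the mM-CSF, sM-CSF and control libraries. Markers of plasma cells summed to 4313, 1425 and 1372 FPKM in the same libraries (4 of 6 called higher with mM-CSF against the control). Of these, Jchain was at 3301, 1072 and 1008 FPKM. T cell markers summed to 598, 500.1 and 283 FPKM (5 of 7 higher, 1 lower). Those of NK cells summed to 534, 346 and 278 FPKM (1 of 7 higher) and those of erythroid cells to 4455, 3841 and 5181 FPKM (2 of 7 lower). With the length trend subtracted, the plasma cell median difference between mM-CSF and control was 0.95 in place of 1.65. It was 0.82 in place of 1.19 for T cells, -0.08 in place of 0.77 for NK cells and -1.30 in place of -0.73 for erythroid cells. The part of any cell type in the C1q values was not tested.

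Of 8 transcription factor genes listed for their bearing on C1q genes, 0 were called higher or lower between the mM-CSF and control libraries. This holds for the size rule without allowance for length, by which 8.97% of all genes tested were higher and 15.1% lower. The median difference of the 8 genes was 0.06. Maf, a leucine zipper factor gene of macrophages, was at 47.8, 27.9 and 25.9 FPKM in the mM-CSF, sM-CSF and control libraries, a difference of 0.86 between mM-CSF and control that was 1.18 with the length trend subtracted. Spi1, which encodes PU.1, was at 120, 156 and 194 FPKM, and differed by -0.69, or -1.15 with the trend subtracted. Nr1h3, which encodes the sterol receptor LXR alpha, was at 53.9, 24.8 and 32.3 FPKM in the mM-CSF, sM-CSF and control libraries. It was the 1 gene of this list called higher between mM-CSF and sM-CSF, against 3.79% of all genes tested. Its difference there was 1.09, or 0.89 with the trend subtracted. Maf differed by 0.75 in that comparison, or by 1.10 with the trend subtracted. Pparg, a lipid-sensing nuclear receptor gene, stood at 13.8 FPKM with sM-CSF and 30.6 FPKM in the control. It was the 1 gene of this list called lower there, against 1.63% of all genes tested.

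Properdin followed the same order of libraries as C1q. Cfp (gene 18636), whose product stabilises the alternative pathway convertase, had 483 FPKM in the mM-CSF library, 267 in the sM-CSF library and 189 in the control library. Its share of counts was 2.58-fold higher with mM-CSF than in the control (2.47 to 2.69), a difference of 1.35 that fell to 0.89 with the length trend subtracted and to 0.89 after rescaling to TPM, short of 2-fold in both. With sM-CSF it was 1.42-fold higher (1.35 to 1.49), and between mM-CSF and sM-CSF 1.82-fold higher (1.75 to 1.89), neither of which was called. The level of Cfp relative to the mean of the C1q chains was 0.420 in the mM-CSF library, 0.697 in the sM-CSF library and 0.676 in the control library. Properdin is also made by neutrophils and monocytes. The 8 neutrophil markers summed to 267, 59.4 and 54.6 FPKM in the mM-CSF, sM-CSF and control libraries, with 4 of the 5 tested called higher with mM-CSF against the control, and Ly6g, their defining marker, was at 1.45, 0.36 and 0.25 FPKM. The 6 myeloid granule markers summed to 924, 190 and 173 FPKM, and all 6 were called higher with mM-CSF. The 6 classical monocyte markers summed to 416, 294 and 208 FPKM, with 1 of the 5 tested called higher with mM-CSF against the control. That gene, Ly6c2, weighed heavily in these sums, at 272, 107 and 70.9 FPKM, and the other 4 were not called. The median difference of the 5 was 0.85, or 0.39 with the length trend subtracted. The part of these cell types in the level of Cfp was not tested.

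C3 and C4b were low in all libraries and, by share of counts without allowance for length, lower in both M-CSF groups than in the control. C3 (gene 12266), the central component, had 7.66 FPKM in the mM-CSF library, 5.40 in the sM-CSF library and 15.5 in the control library. Its share was 2.01-fold lower with mM-CSF (95% interval 1.76 to 2.29) and 2.86-fold lower with sM-CSF (2.48 to 3.32) than in the control. C3 transcripts are long, at 5139 bases in the tables. With the length trend subtracted, C3 differed by -0.17 in place of -0.93 between mM-CSF and control, but by -1.20 in place of -1.36 between sM-CSF and control, so that the sM-CSF difference lay past 2-fold below genes of like length and the mM-CSF difference did not. The mean of the C1q chains was 150 times the level of C3 in the mM-CSF library, 70.9 times in the sM-CSF library and 18.03 times in the control library.

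C4b (gene 12268), the classical pathway component cleaved by active C1, had 1.06 FPKM in the mM-CSF library, 0.74 in the sM-CSF library and 2.23 in the control library. It shares reads with its near-identical copy C4a, since the counts of each were not whole while their sums were whole, at 55, 57 and 124 in the mM-CSF, sM-CSF and control libraries, and its value is uncertain. By share of counts C4b was 2.09-fold lower with mM-CSF (1.49 to 2.98) and 3.03-fold lower with sM-CSF (2.07 to 4.55) than in the control. Its transcripts are long, at 5427 bases. With the length trend subtracted, C4b differed by 0.11 in place of -0.65 with mM-CSF. With sM-CSF it differed by -0.73 in place of -0.89. Cfb (gene 14962), the protease of the alternative pathway convertase, was at 1.21, 2.37 and 2.62 FPKM in the mM-CSF, sM-CSF and control libraries. Its share was 2.15-fold lower with mM-CSF than in the control (1.37 to 3.45) and 1.10-fold lower with sM-CSF (0.763 to 1.59), the second interval including 1. C2, its neighbour and homologue in the classical pathway, was at 6.43 FPKM with mM-CSF, 3.45 with sM-CSF and 4.57 in the control, and was not called in any comparison.

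The anaphylatoxin receptors were scarce. C5ar1 (gene 12273) encodes the C5a receptor, which draws phagocytes to sites of complement activation. The mM-CSF library had 0.93 FPKM of it, the sM-CSF library 1.62 FPKM and the control library 4.91 FPKM. Its control value lay just under the minimum of 5 FPKM, so it was not tested by the size rule. By share of counts it was 5.23-fold lower with mM-CSF (3.23 to 8.90) and 3.03-fold lower with sM-CSF (2.07 to 4.55) than in the control, on estimated counts of 20, 36 and 111 in the mM-CSF, sM-CSF and control libraries. Subtraction of the length trend left these differences of log2(FPKM + 1) nearly as they were, at -1.62 in place of -1.61 with mM-CSF and -1.21 in place of -1.17 with sM-CSF. C3ar1 (gene 12267), the C3a receptor, was at 0.69, 0.87 and 0.81 FPKM in the mM-CSF, sM-CSF and control libraries, and the intervals of its ratios included 1 in all 3 comparisons. Its estimated counts were not whole, as can happen where reads are divided between genes. Non-classical monocyte markers, which were lower along with C5ar1, summed to 312, 432 and 1038 FPKM in the mM-CSF, sM-CSF and control libraries, with 6 of 7 called lower with mM-CSF and 5 of 7 with sM-CSF against the control. Their part in the level of C5ar1 was not tested.

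The wider complement system was described by 51 further genes, of which 10 were not listed in any library (C1rb, Masp1, Mbl1, Mbl2, C7, C8b, C9, C4bp, Vtn and Cfhr2), 24 stayed below 5 FPKM and 17 reached it in at least 1 library. Of the proteases that act directly with C1q, C1ra was low, at 3.47 FPKM in the mM-CSF library, 3.54 in the sM-CSF library and 1.59 in the control library, on counts of 83, 88 and 40. Its share of counts was 2.2003-fold higher with mM-CSF (1.49 to 3.29) and 2.24-fold higher with sM-CSF (1.52 to 3.34) than in the control. C1s1 had 0.04 FPKM in the control and was not listed elsewhere. Between mM-CSF and control, the size rule was passed upward by 2 and downward by 5 of the 17 tested genes, whose median difference was -0.30, against 8.97% of all genes tested upward and 15.1% downward. With the length trend subtracted, 1 was higher and 3 were lower, against 295 higher and 771 lower of all 9789 genes tested. Between sM-CSF and control, 0 of 15 were higher and 2 lower (0.785% and 1.63% of all genes), and their median was 0.02. Neither of the 2 stayed past 2-fold with the length trend subtracted, where 176 of all 9683 genes tested were lower. Between mM-CSF and sM-CSF, 2 of 17 were higher and 4 lower (3.79% and 8.73% of all genes), and their median was -0.01. The medians over all genes tested were -0.05, 0.02 and -0.08 in these comparisons.

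Ficolins, which start the lectin pathway by binding sugars, were the 2 further genes higher with mM-CSF. Fcna, a ficolin of mouse spleen and liver macrophages, had 385 FPKM in the mM-CSF library, 129 in the sM-CSF library and 105 in the control library. Its share was 3.70-fold higher with mM-CSF than in the control (3.47 to 3.95), and its difference of 1.87 was 1.29 with the length trend subtracted. Fcnb, a ficolin of the myeloid lineage, was at 5.45, 0.64 and 1.27 FPKM, 4.33-fold higher with mM-CSF than in the control (2.27 to 8.94), and at a difference of 0.75 in place of 1.51 with the trend subtracted. Masp2, the protease of the lectin pathway, was lower with mM-CSF, at 1.73 FPKM against 7.37 in the control, and stood at 7.59 in the sM-CSF library.

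Of 4 tested receptor genes for complement fragments, 3 were called lower with mM-CSF against the control and 1 with sM-CSF. Of all genes tested, 15.1% and 1.63% were called lower in these comparisons. Itgam, the alpha subunit of complement receptor CR3, had 5.76 FPKM in the mM-CSF library, 19.96 in the sM-CSF library and 41.3 in the control library. Itgax, the alpha subunit of CR4, was at 28.1, 133 and 163 FPKM, and their shared beta subunit Itgb2 at 170, 243 and 320 FPKM, in the mM-CSF, sM-CSF and control libraries. With mM-CSF against the control, Itgam and Itgax differed by -2.65 and -2.49 (-2.005 and -1.99 with the length trend subtracted) and Itgb2 by -0.91, short of 2-fold. With sM-CSF, Itgam differed by -1.01 from the control, or by -0.89 with the trend subtracted. The estimated counts of Itgam and Itgax were not whole, so their values are less certain. Cr2, a receptor for C3 fragments on B cells, was at 16.7 FPKM with mM-CSF, 56.7 with sM-CSF and 40.6 in the control, but its difference of -1.23 between mM-CSF and control was -0.34 with the trend subtracted. The 7 B cell markers, which include Cr2, summed to 2634, 2441 and 1284 FPKM in the mM-CSF, sM-CSF and control libraries. The 7 conventional dendritic cell markers, which include Itgax, summed to 54.2, 277 and 323 FPKM, and all 7 were called lower with mM-CSF; their part in the level of Itgax was not tested. Vsig4, a C3b receptor of resident macrophages, did not pass 0.41 FPKM in any library.

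Of 5 tested genes of proteins that bind C1q, 1 was called lower with mM-CSF and 1 with sM-CSF against the control, Lrp1 in both cases. The shares called lower over all genes tested were 15.1% and 1.63%. Calr, a chaperone that also serves as a C1q receptor at the cell surface, had 735 FPKM in the mM-CSF library, 529 in the sM-CSF library and 497 in the control library, and C1qbp at 111, 79.3 and 87.2 FPKM, neither of them called. Lrp1, a large uptake receptor that acts with calreticulin, was at 19.3, 21.5 and 47.0 FPKM in the mM-CSF, sM-CSF and control libraries. Its transcript of 14907 bases is long, and its differences of -1.24 and -1.09 were 0.00 and -0.76 with the length trend subtracted. The membrane regulators Cd55 and Cr1l protect cells from complement and were not called in any comparison. Cd55 was at 41.5, 64.8 and 56.9 FPKM in the mM-CSF, sM-CSF and control libraries. Cr1l was at 60.7, 50.3 and 49.6 FPKM in the same libraries.

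**Figure D5:**
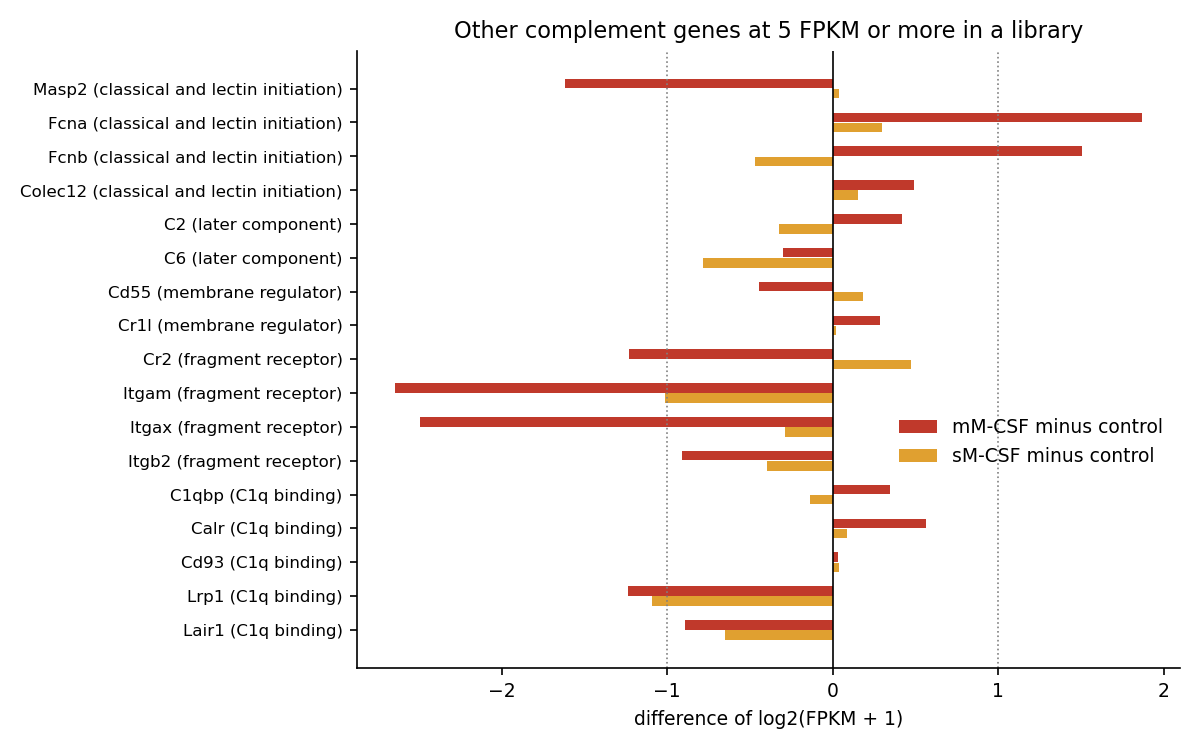
Difference of log2(FPKM + 1) for the 17 further complement genes with at least 5 FPKM in a library, for mM-CSF minus control (upper bar) and sM-CSF minus control (lower bar), with the gene's role in brackets and dotted lines at 2-fold. Fcna and Fcnb extend to the right with mM-CSF, while Itgam and Itgax extend furthest to the left.

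The genes whose pattern lay nearest to the mean of the C1q chains were sought among 2032 genes with at least 50 FPKM in a library. Predicted gene models and ribosomal protein, immunoglobulin and mitochondrial genes were left out of the search. Ribosomal protein genes took 12.4%, 7.21% and 5.22% of counts in the mM-CSF, sM-CSF and control libraries. Distance was Euclidean over the differences of mM-CSF and of sM-CSF from the control. These differences rest on 3 libraries and share the control. The nearest 5 were Lgals1 (a galectin gene), Fkbp2 (a prolyl isomerase gene of the endoplasmic reticulum), Tmem254b, Etfb (an electron transfer flavoprotein gene) and S100a13 (a calcium-binding protein gene), at distances of 0.05 to 0.14. Lgals1 had 588 FPKM in the mM-CSF library, 187 in the sM-CSF library and 138 in the control library. Their lengths were 651 to 920 bases, except for 1413 bases of Tmem254b, and with the length trend subtracted they took ranks 6 (Lgals1), 45 (Fkbp2), 26 (Tmem254b), 27 (Etfb) and 24 (S100a13). Fcna, looked at after its values were seen, was at rank 9 and at rank 4 with the trend subtracted.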

How the data were processed

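RNA of sorted splenic macrophages was sequenced in 3 libraries, 1 per group, from 1 ug of total RNA each, per the labels' protocols. Bowtie2 2.2.5 and RSEM were used, per the submitters' processing notes, which give no roles. Genome build, annotation and strand setting are not given in the sources used here. The deposited tables hold, per the file headers, an expected count (estimated reads per gene, not always whole), a gene length and an FPKM value scaled by the authors to length and mapped fragments. A gene missing from a table was set to 0, and a floor of 3 counts corresponds to 0.330 to 0.350 CPM. Symbols came from RefSeq's GRCm38.p6 gene table by NCBI gene ID, which matched all but 54 of 17615 IDs, and promoters from RefSeq's table of that build.

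Differences were taken between log2(FPKM + 1) values, which understates changes of low genes. With 1 library per group there was no test, and a fixed size rule was used. Expected counts were rounded for ratios of count shares with exact conditional (Clopper-Pearson) 95% intervals. Length trends were removed by subtracting the median in 20 length bins. The steps were checked on simulated counts, in Python 3.11.15 with scipy 1.17.1. Named genes were the 9 genes, list genes at 5 FPKM or more, the 5 nearest in pattern, the sort genes and marker sums. C1ra, C1s1, Vsig4, the unlisted genes, Spic, Ly6g, Ly6c2, Jchain, Trf, Cd68, Aif1, Lyz2 and the ranks of Fcna were chosen after their values were seen. The genes and lists were chosen with earlier results of these data known. The alternatives covered the pseudocount, minimum, size rule, scaling and length.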

Additional observations from a re-analysis of the deposited data

How the results depend on the processing

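The direction of the C1q chains was the same under all 12 alternatives in all 3 comparisons. Between mM-CSF and control all 3 chains stayed past 2-fold or the changed size rule throughout, with differences from 1.04 to 2.60, and no alternative changed the count of higher genes by over 1.5 times. The count of genes lower with mM-CSF than in the control was 0 as reported. It was 1 with a pseudocount of 0.1 FPKM and with a size rule of 1.5-fold (C3 in both). It was also 1 with a minimum of 1 FPKM and with scaling to reads outside ribosomal protein, immunoglobulin and hemoglobin genes (C5ar1 in both). After rescaling to TPM it was 3 (C3, Cfb and C5ar1), where 3406 of all 11235 genes tested were lower. The count of genes lower with sM-CSF than in the control, 1 as reported, was 0 with a pseudocount of 5 FPKM and with a size rule of 3-fold. It was 2 with a minimum of 1 FPKM, with TPM and with scaling to reads outside the 3 gene classes. With TPM, 364 of all 11240 genes tested were lower with sM-CSF. Scaled to Csf1r and Adgre1, the sM-CSF library had 4 genes higher, 3 of them C1q chains, and 0 lower. Thresholds changed these counts by construction. The scalings multiply all genes of a library by the same factor, so they also changed the counts by construction. Why the factors differ between libraries was not tested. Between mM-CSF and sM-CSF no alternative changed a count of the 9 genes by over 1.5 times. However, C1qc was called under only 10 of the 12. It fell short of the 3-fold rule, and with the length trend subtracted C1qc (0.89) was no longer called and C3 (1.05) was. Of the 51 further complement genes, 2 were higher and 5 lower with mM-CSF than in the control. The lower count was 8 with TPM and 3 with the 3-fold rule, the sort genes and the length trend, and the higher count was 1 with the 3-fold rule, the length trend, a pseudocount of 5 and a minimum of 10 FPKM. With sM-CSF, 0 were higher and 2 lower; the lower count was 4 with the 1.5-fold rule, 1 with reads outside the 3 classes and 0 with a pseudocount of 5, the 3-fold rule, the length trend and the sort genes, which gave 2 higher. Between mM-CSF and sM-CSF, the 2 higher became 1 with a pseudocount of 5, a minimum of 10 FPKM and the 3-fold rule.

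Scaling to the sort genes shifted the median of all tested genes by 0.40 (mM-CSF) and 0.69 (sM-CSF) against the control, so that 73.9% and 98.2% of calls were higher, in place of 37.2% and 32.5%. TPM shifted it by -0.46 and -0.14 (7.62% and 21.2% higher), and scaling to reads outside the 3 gene classes by 0.12 with mM-CSF (48.1% higher). With the length trend subtracted, 21.4% of calls were higher with sM-CSF. Between mM-CSF and sM-CSF, 30.3% of calls were higher as reported, 48.8% with median-of-ratios, 45.4% with upper-quartile and 41.9% with reads outside the 3 classes, and 7.72% with TPM and 7.17% with the sort genes. Among uncalled genes, C4b, C3ar1 and Cfb changed sign under some alternatives. No paired analysis was possible because each group had 1 library, and no library could be left out for the same reason. Counts of 20 to 111 limit C5ar1, C4b, Cfb and C3ar1.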
